A study of Mus musculus with 15 samples.

Results

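The genes described here are 9 genes of pulmonary surfactant and of the lamellar body, the organelle that stores it: Sftpa1, Sftpb, Sftpc, Sftpd, Abca3, Lamp3, Napsa, Slc34a2 and Lpcat1. They were taken by symbol from the 23420 genes of the raw count tables, and all 9 were found in both tables. RNA of whole embryonic mouse lungs (strain CD1, outbred, genotype wildtype) was sequenced in 15 libraries that fall into 5 groups of 3. High pressure and low pressure lungs were taken at stage E12.5 (days of gestation) and kept ex vivo for 48 h under the named transmural pressure, which is the pressure difference across the airway wall. Fresh lungs were not cultured and came from embryos of 3 stages: E12.5, E13.5 or E14.5. Each library was a pool, of 6 lungs in the low pressure and E12.5 groups and of 3 lungs in the high pressure, E13.5 and E14.5 groups, so pool size and pressure cannot be told apart. Nor can pool size and stage where E13.5 or E14.5 is compared with E12.5. Whether the pools within a group represent different litters or culture runs is not stated in the labels, so a p-value here covers only pool-to-pool spread, which may be technical.

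Surfactant is a film of phospholipid and protein that lowers surface tension at the air and liquid interface of the alveolus, and it is made by alveolar type 2 cells. Its lipid is loaded into lamellar bodies by a membrane transporter, its hydrophobic proteins are cut from precursors on the way there, and the organelle is secreted at the cell surface. These cells mature late in gestation, well after the stages sampled here, while Sftpc transcripts already mark the distal tips of the branching epithelium in the early mouse lung.

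The libraries held 40167255 to 44341263 counts in high pressure lungs, 31843739 to 38288861 in low pressure lungs and 18837343 to 21955244 in fresh lungs. Markers of lung epithelium and mesenchyme were present throughout, with Nkx2-1, a lung epithelial transcription factor, at 171 to 185 CPM in high pressure lungs, 77.9 to 87.5 CPM in low pressure lungs and 60.7 to 110.0 CPM in fresh lungs. CPM is the read count per library scaled to sequencing depth, here with scaling factors fitted over all 15 libraries. Low pressure replicate 3 stood apart at low counts: it had 14637 genes with any count, against 16509 to 16726 in the other cultured libraries, and 209 of 13726 genes with at least 20 counts in both other low pressure libraries were at 0 in it. Sftpa1, Slc34a2 and Sftpd were at 0 in that library, and results for Sftpa1 and Slc34a2 are given with and without it. Among fresh lungs, replicate 1 of every stage stood apart from replicates 2 and 3. The summed level of 19 pan-epithelial genes (keratins, claudins, Epcam, Cdh1 and others) was 1045 to 1451 CPM in replicate 1 of the 3 stages and 659 to 899 CPM in replicates 2 and 3.

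High pressure lungs carried more RNA of the surfactant and lamellar body genes than low pressure lungs. By edgeR's quasi-likelihood test, with p-values adjusted over all genes by the Benjamini-Hochberg method and a threshold of 0.05, 7 of the 8 genes that passed the filter on low counts rose and 0 fell. The background was 14% of all genes tested called higher (2089 of 14937) and 12.2% called lower. The count is a description: Sftpc, Sftpb, Lamp3, Abca3 and Lpcat1 would pass the filter in either pressure group alone, but Sftpa1, Slc34a2 and Napsa passed only through the high pressure libraries, and a gene kept in that way could hardly be called other than higher there. Sftpc, Slc34a2, Sftpa1, Lamp3 and Sftpb rose by 2.82 to 4.86 on the log2 scale, Abca3 and Lpcat1 rose by 0.82 and 0.85, and Napsa did not pass. Without low pressure replicate 3 the same count of 7 of 8 rose, against 22.1% of all genes tested. The 8 genes had a median log2 fold change of 3.01, to which the same limit applies, against 0.01 for all genes tested. For all 9 genes, every high pressure library was above every low pressure library, which also held for 25.3% of all genes tested. This count is a description too: the same limit applies to Sftpa1, Slc34a2 and Napsa, and Sftpd was not among the genes tested. In whole-lung RNA, more cells of a type and more RNA per cell cannot be told apart.

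The genes thus fell into a group with large fold changes and a group with small ones, a division made after their values were seen, and promoters of both are shown so that their motifs and base composition can be read beside the fold changes. RefSeq promoters on GRCm38.p6, from 250 bases before to 50 after the start, were matched for 6 of the 9 genes (Sftpa1, Sftpb, Abca3, Lamp3, Slc34a2 and Lpcat1). Capitals mark matches on either strand to an NKX2-1 consensus, GCNCTNNAG, or to a core bound by forkhead factors such as FOXA1 and FOXA2, TGTTTNC. NKX2-1 and FOXA proteins are known activators of surfactant protein promoters.
Sftpb promoter, chr6:72304360-72304659, plus strand: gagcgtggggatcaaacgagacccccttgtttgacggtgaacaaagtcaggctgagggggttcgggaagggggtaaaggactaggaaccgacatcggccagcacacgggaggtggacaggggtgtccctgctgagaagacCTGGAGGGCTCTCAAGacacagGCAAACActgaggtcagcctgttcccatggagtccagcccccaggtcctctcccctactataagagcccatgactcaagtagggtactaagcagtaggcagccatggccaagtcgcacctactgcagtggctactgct
Sftpa1 promoter, chr14:41131538-41131837, plus strand: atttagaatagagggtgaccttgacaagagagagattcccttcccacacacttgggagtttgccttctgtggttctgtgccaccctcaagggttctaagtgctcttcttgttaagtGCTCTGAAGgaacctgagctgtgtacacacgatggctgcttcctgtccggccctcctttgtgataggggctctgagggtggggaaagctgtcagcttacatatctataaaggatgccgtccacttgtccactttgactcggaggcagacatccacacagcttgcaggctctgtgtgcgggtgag
Lamp3 promoter, chr16:19706316-19706615, minus strand: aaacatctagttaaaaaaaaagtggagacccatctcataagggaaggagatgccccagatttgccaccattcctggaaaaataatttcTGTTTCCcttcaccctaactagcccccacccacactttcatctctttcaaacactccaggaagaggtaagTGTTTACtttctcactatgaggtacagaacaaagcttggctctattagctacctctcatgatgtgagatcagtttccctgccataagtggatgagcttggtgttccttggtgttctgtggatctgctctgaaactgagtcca
Lpcat1 promoter, chr13:73466981-73467280, plus strand: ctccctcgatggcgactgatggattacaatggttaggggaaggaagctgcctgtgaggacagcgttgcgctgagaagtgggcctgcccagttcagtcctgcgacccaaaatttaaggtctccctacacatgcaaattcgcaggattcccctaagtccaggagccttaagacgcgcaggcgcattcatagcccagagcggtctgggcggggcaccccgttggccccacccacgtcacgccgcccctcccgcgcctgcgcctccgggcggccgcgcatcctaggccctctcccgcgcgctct
In the Sftpb promoter a pair of NKX2-1 matches on opposite strands, with first bases 110 and 103 bases before the start, overlapped at their inner ends, and a forkhead match lay 88 bases before it. The Sftpa1 promoter held a single NKX2-1 match at 134 bases before the start, and the Lamp3 promoter held forkhead matches at 162 and 92 bases. No match to either motif was found in the Abca3, Slc34a2 or Lpcat1 windows. Of 32851 RefSeq promoters of this length, 17.5% held the NKX2-1 motif and 20.5% the forkhead motif, so such matches are common. CpG dinucleotides numbered 0 in Lamp3, 5 in Sftpa1, 8 in Sftpb, 25 in Lpcat1, 29 in Abca3 and 30 in Slc34a2. The median of all promoters was 7, just below Sftpb. Slc34a2 had a large fold change and a CpG-rich promoter, and its RefSeq start lies inside the GENCODE gene, downstream of the annotated gene start. No relation between promoter and fold change was tested, and Sftpc, Sftpd and Napsa had no matched promoter.

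Sftpc (chr14:70520949-70524081, minus strand, GRCm38) encodes surfactant protein C, a small hydrophobic peptide that is embedded in the lipid film. It stood at 210.2, 146 and 128 CPM in the high pressure libraries, against 4.71, 2.94 and 9.14 CPM in the low pressure libraries. The lowest high pressure library was far above the highest low pressure library, and the ratio of the group means was 28.8. Sftpc rose by 4.86 on the log2 scale (SE 0.40, edgeR adjusted p = 0.000398), the 9th largest of 14937 fold changes. Sftpb (chr6:72304610-72314371, plus strand) encodes surfactant protein B, which organises the lamellae and is needed for breathing at birth. It had 24.2, 23.3 and 19.4 CPM at high pressure, against 2.23, 2.18 and 5.08 CPM at low pressure, with no overlap. Its log2 fold change was 2.82 (SE 0.33, edgeR adjusted p = 0.00114). In both genes low pressure replicate 3 was the highest of the low pressure libraries, and without it the log2 fold changes were 5.41 for Sftpc and 3.33 for Sftpb.

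Sftpa1 (chr14:41131782-41136452, plus strand) and Sftpd (chr14:41172214-41185149, minus strand) encode the collectins of surfactant, water-soluble proteins of innate defence, and they lie close together on the same chromosome. Sftpa1 had 6.37, 8.21 and 4.97 CPM at high pressure, against 0.837, 0.961 and 0 CPM at low pressure, from 274, 361 and 198 counts against 27, 37 and 0 counts. The groups were clearly apart with or without the library at 0. Sftpa1 rose by 3.41 on the log2 scale (SE 0.79, edgeR adjusted p = 0.0150); leaving out low pressure replicate 3 gave 2.85. The call was lost without high pressure replicate 1 (adjusted p = 0.0533) or replicate 2 (adjusted p = 0.0778). Sftpd was barely detected, with 2, 7 and 2 counts in the high pressure libraries and 0 counts in the low pressure libraries and in all 9 fresh ones. Set against a floor of 3 counts over the group, it was at least 2.96-fold higher at high pressure, a figure that covers counting error only. It did not pass the filter and had no test in the main fit; with no filter, edgeR's adjusted p was 0.169.

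Lamp3 (chr16:19653378-19706375, minus strand) encodes a glycoprotein of the lamellar body's limiting membrane, and Abca3 (chr17:24351950-24410201, plus strand) encodes the transporter that moves phospholipid into the organelle. Lamp3 had 7.65, 10.3 and 6.68 CPM at high pressure, against 0.527, 0.624 and 1.52 CPM at low pressure. It rose by 3.20 on the log2 scale (SE 0.42, edgeR adjusted p = 0.00180) and by 3.82 without low pressure replicate 3. Abca3 was already abundant at low pressure, with 73.9, 62.9 and 67.0 CPM at high pressure and 38, 37.3 and 40.1 CPM at low pressure. Its 3 libraries of each group lay close together, and it rose by 0.82 (SE 0.10, edgeR adjusted p = 0.00142). These genes of the same membrane therefore had a ratio of means of 9.21 for Lamp3 and 1.77 for Abca3. Abca3 overlaps D330041H03Rik on the opposite strand, and because the strand setting of the counting is not given in the sources used here, their reads cannot be told apart.

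Lpcat1 (chr13:73467197-73516422, plus strand) encodes the acyltransferase that remodels phosphatidylcholine into the disaturated form typical of surfactant. It had 80.4, 89.4 and 86.5 CPM at high pressure, against 51.0, 45.1 and 45.8 CPM at low pressure. The groups did not overlap, and it rose by 0.85 on the log2 scale (SE 0.10, edgeR adjusted p = 0.00106). Slc34a2 (chr5:53038081-53071664, plus strand) encodes the sodium and phosphate cotransporter that takes up phosphate released from surfactant phospholipid. It was scarce, with 34, 78 and 72 counts at high pressure against 6, 3 and 0 counts at low pressure, or 0.790, 1.77 and 1.81 CPM against 0.186, 0.0779 and 0 CPM. All high pressure libraries were above all low pressure libraries, and it rose by 4.0 on the log2 scale (SE 0.95, edgeR adjusted p = 0.0174), or by 3.46 without low pressure replicate 3. It passed the filter only through the high pressure libraries. The call was lost without high pressure replicate 2 (adjusted p = 0.0856), high pressure replicate 3 (0.0812) or low pressure replicate 2 (0.0566). Napsa (chr7:44572380-44586862, plus strand) encodes napsin A, an aspartic protease that takes part in the processing of the surfactant protein B precursor. It had 1.12, 0.978 and 0.779 CPM at high pressure, against 0.558, 0.390 and 0.0952 CPM at low pressure. The libraries were apart, but the log2 fold change of 1.45 (SE 0.73) did not pass (edgeR adjusted p = 0.175), nor did the 1.02 found without low pressure replicate 3 (adjusted p = 0.146). Napsa and Slc34a2 each overlap an annotated antisense gene, Gm15396 and Gm17182, whose reads cannot be told apart from theirs.

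**Figure D1:**
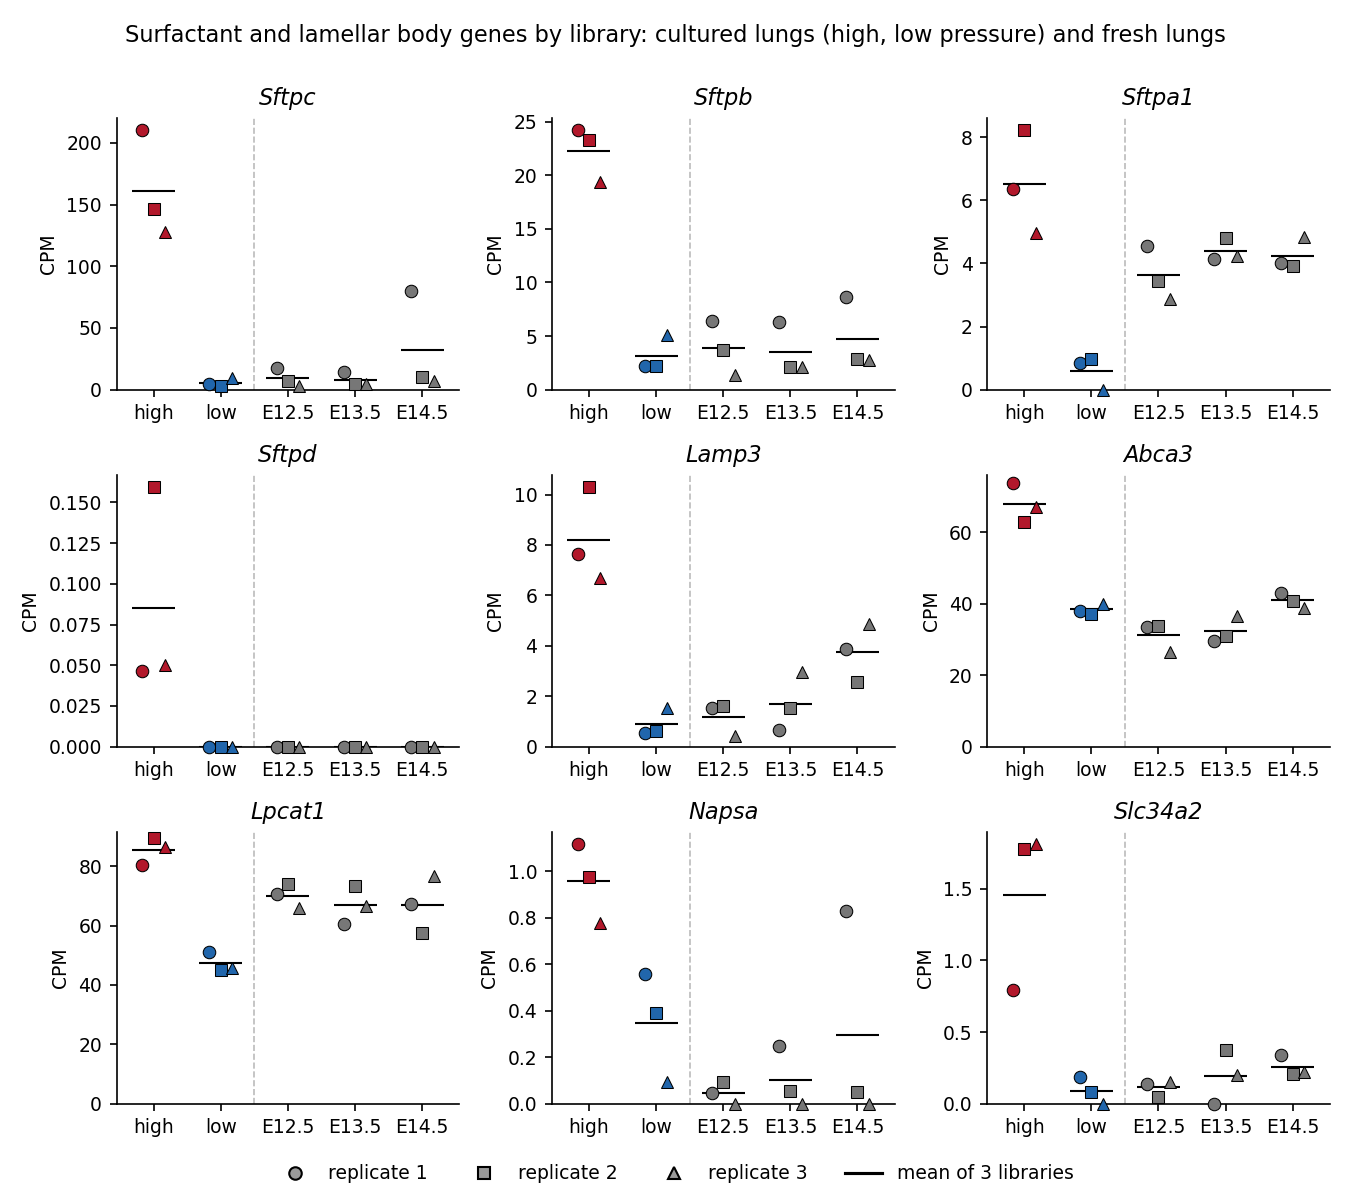
CPM of each of the 9 genes (vertical axes, linear from 0, scaled over all 15 libraries) in high pressure, low pressure, E12.5, E13.5 and E14.5 lungs; symbols give the replicate number, bars the mean of 3 libraries, and the dashed line separates cultured from fresh lungs. The high pressure points lie above the low pressure points in all 9 panels, and replicate 1 of E14.5 has 79.9 CPM of Sftpc, against 10.2 and 6.80 CPM in replicates 2 and 3.

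Sftpc also made up a larger part of the surfactant transcripts at high pressure than at low pressure. On a scale of reads per kilobase of exon, Sftpc reached 12.0 to 16.5 times the level of Sftpb in high pressure libraries and 2.56 to 4.02 times in low pressure libraries. Of the reads per kilobase of all 9 genes together, Sftpc held 75.5% to 82.7% at high pressure and 15.5% to 33.9% at low pressure. In fresh libraries it held 14.3% to 74.5%, with the highest share in E14.5 replicate 1. Lpcat1 held 7.05% to 11.4% at high pressure and 37.9% to 53.1% at low pressure, although its own level was higher at high pressure. The order of levels per kilobase differed accordingly. At high pressure Sftpc came first with 156 ± 41.9 CPM per kilobase (SD, n = 3), and Lpcat1 (18.4 ± 0.999), Sftpb (11.3 ± 1.31) and Abca3 (7.25 ± 0.591) followed, each apart from its neighbour in all libraries. Lamp3 (2.45 ± 0.559) and Sftpa1 (2.28 ± 0.568) overlapped, as did Napsa and Slc34a2, and Sftpd came last. At low pressure Lpcat1 came first with 10.2 ± 0.701 CPM per kilobase, Sftpc (5.41 ± 3.09) overlapped with Abca3 (4.10 ± 0.155), Sftpb followed at 1.61 ± 0.842, and the neighbours below Lamp3 overlapped.

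Epithelial RNA as a whole was also higher at high pressure. The summed pan-epithelial level was 2340 to 2435 CPM in high pressure libraries and 1123 to 1296 CPM in low pressure libraries. Of its 19 genes, 17 rose (89.5%, against 14% of all genes tested), with a median log2 fold change of 0.94. Each member was therefore also expressed per 1000 reads of those 19 genes in the same library. On this scale Sftpc had 89.8, 60.1 and 54.4 reads per 1000 at high pressure, against 3.72, 2.61 and 7.05 at low pressure. Sftpb had 10.4, 9.56 and 8.26 at high pressure, against 1.76, 1.94 and 3.92 at low pressure. Lamp3 had 3.27, 4.23 and 2.85 at high pressure, against 0.416, 0.555 and 1.18 at low pressure. The groups of these 3 genes stayed apart, as did those of Sftpa1 and Slc34a2. Sftpa1 and Slc34a2 passed the filter only through the high pressure libraries, so the following count is a description with the limit given above. Of the 8 genes tested in edgeR, 5 had all high above all low pressure libraries on this scale, against 1.93% of all genes tested. Abca3 and Lpcat1 did not: Abca3 had 31.6, 25.8 and 28.6 reads per 1000 at high pressure and 30.0, 33.2 and 30.9 at low pressure, and Lpcat1 had 34.3, 36.7 and 36.9 at high pressure and 40.3, 40.1 and 35.4 at low pressure.

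The difference of mean log2 values between high and low pressure on that scale was 4.02 for Sftpc, 2.37 for Lamp3 and 1.97 for Sftpb, and 4.41, 2.79 and 2.33 for the same genes without low pressure replicate 3. It was 3.81 for Sftpa1 and 3.42 for Slc34a2, values that rest on that library, in which both are at 0: without it they were 1.82 and 2.35, so that Sftpa1 stood below Lamp3 and Sftpb. With all 6 libraries, each of these 5 genes had p = 0.1 in a two-sided exact permutation test, the smallest value that 3 against 3 libraries allow, so no gene could pass 0.05. No difference is given for Sftpd, which had 0 counts in every low pressure library. The difference was 0.75 for Napsa (exact permutation p = 0.5) and 0.0051 without low pressure replicate 3. It was -0.10 for Lpcat1 and -0.13 for Abca3 (exact permutation p = 0.3 each). Abca3 and Lpcat1 thus rose by 0.82 and 0.85 on the log2 scale of total RNA, close to the pan-epithelial median of 0.94, and their ratios to epithelial reads overlapped between the pressures. A p that misses the threshold does not show that these ratios were equal.

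**Figure D2:**
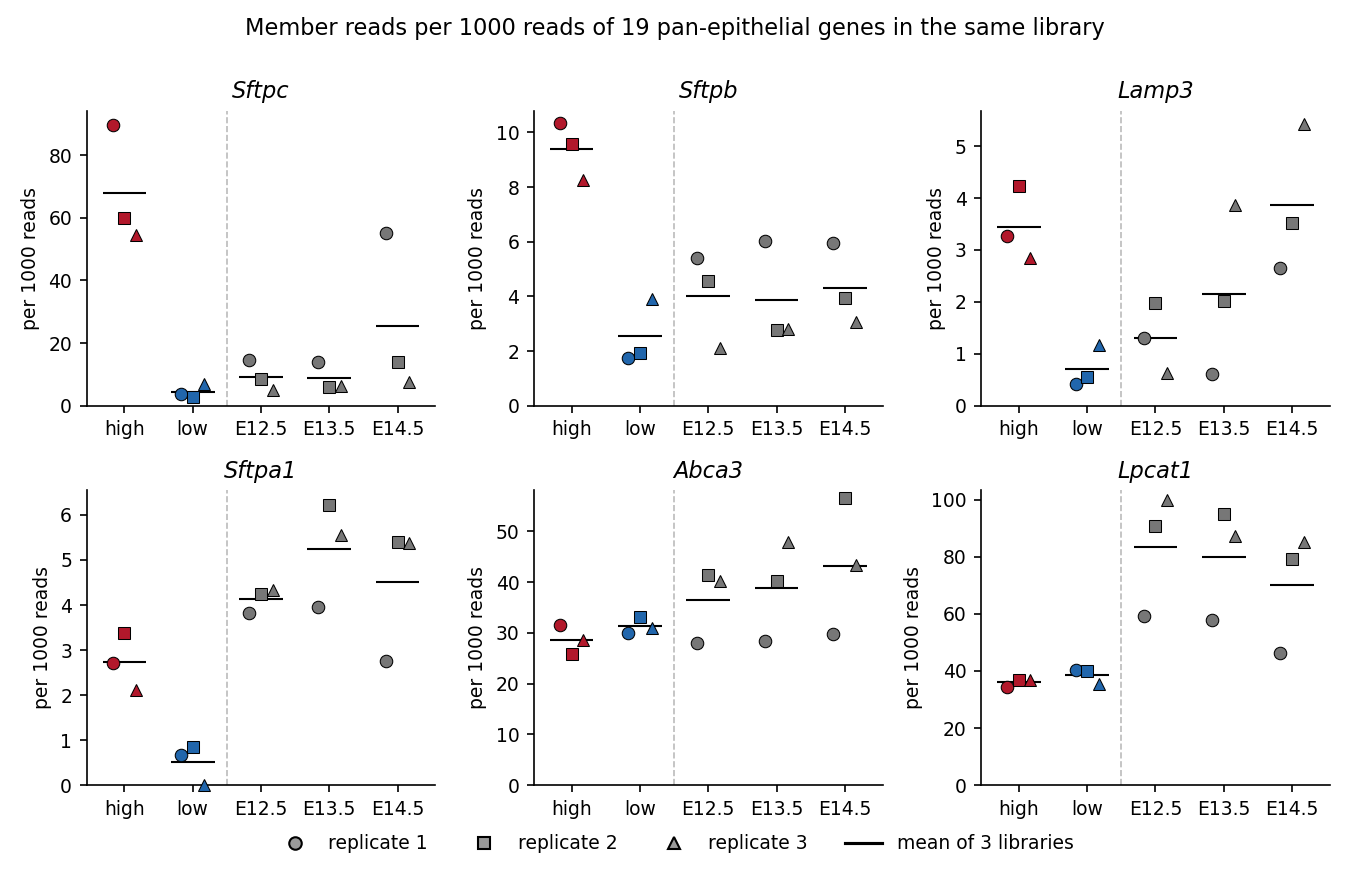
Reads of 6 genes per 1000 reads of 19 pan-epithelial genes in the same library (vertical axes, linear from 0) in high pressure, low pressure, E12.5, E13.5 and E14.5 lungs; symbols give the replicate number and bars the mean of 3 libraries. Sftpc, Sftpb, Lamp3 and Sftpa1 stay apart between the pressures, while Abca3 (25.8 to 31.6 at high pressure, 30.0 to 33.2 at low pressure) and Lpcat1 (34.3 to 36.9 at high pressure, 35.4 to 40.3 at low pressure) overlap.

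Other genes of the same cells and pathways had smaller median fold changes, which were not tested against that of the surfactant and lamellar body genes. The limit set by the filter, given above, applies to that median. Of all genes tested, 14% were called higher and 12.2% lower. Of 18 tested markers of alveolar type 2 cells outside the 9 genes, 9 rose (50%) and 2 fell (11.1%). Their median log2 fold change was 1.0. Lgi3, a secreted protein of the type 2 cell, averaged 102 ± 10.4 CPM at high pressure and 26.3 ± 3.94 CPM at low pressure (SD, n = 3 each; log2 fold change 1.95, edgeR adjusted p = 0.00031). Cldn18 rose by 2.55, Muc1 by 2.51 and Egfl6 by 1.1. The fatty acid binding protein Fabp5 fell by 0.78 and the desaturase Scd1 fell by 0.70. Of 32 genes of surfactant processing, trafficking and secretion, 11 rose (34.4%) and 1 fell (3.12%), with a median of 0.20. Rab3d, a small GTPase of secretory vesicles, rose by 1.64 and Rab38, a GTPase needed for lysosome-related organelles, rose by 1.11. The lysosomal proteases Ctsb and Ctsd rose by 0.71 and 0.66, and Hps4, a subunit of an exchange factor for Rab32 and Rab38, fell by 0.42.

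Of 30 tested genes of surfactant lipid synthesis, 5 rose (16.7%, against 14% of all genes tested) and 7 fell (23.3%, against 12.2%), and their median log2 fold change was -0.08. The elongase Elovl6 had 121 ± 3.28 CPM at high pressure and 207 ± 32.3 CPM at low pressure (SD, n = 3 each; log2 fold change -0.77, edgeR adjusted p = 0.00305). The glucose transporter Slc2a1 fell by 0.86. The elongase Elovl1 rose by 0.61 and the lipid droplet protein Plin2 rose by 0.45. Pcyt1a, which encodes the rate-limiting enzyme of phosphatidylcholine synthesis, rose by 0.32; it was named after its value was seen. Among 27 transcription factors and receptors that act on surfactant genes, 12 rose (44.4%) and 1 fell (3.7%), with a median of 0.35. Cebpb rose by 1.67, Klf5 by 1.42 and Elf3 by 1.29, and Nkx2-1 by 1.06, while the distal tip factor Sox9 fell by 0.81. Of 11 genes induced by glucocorticoids, hormones that raise surfactant synthesis before birth, 0 rose and 1 fell (9.09%). The gene that fell was Fkbp5, by 0.55, and the median of the list was -0.06.

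Markers of other cells were counted in the same way, beside 14% of all genes tested called higher and 12.2% called lower. Of 13 alveolar type 1 cell markers, 9 rose (69.2%) and 1 fell (7.69%), with a median of 0.86. Those that rose included Gprc5a (1.48), Ager (2.11), Emp2 (2.01) and Hopx (1.73). The one that fell, Vegfa (-0.87), is also made by other cells and made up much of the summed level of the list, which was 1644 to 2156 CPM at high pressure and 2273 to 2441 CPM at low pressure. Of 17 leukocyte markers, 2 rose (11.8%, Cd68 and Tyrobp) and 1 fell (5.88%, Cx3cr1), shares below those of all genes tested, and the list summed to 275 to 392 CPM at high pressure and 264 to 313 CPM at low pressure. Of the 18 leukocyte genes listed, 0 or 1 was at 0 in each cultured library. Of 10 mesenchyme markers, 4 rose (40%) and 3 fell (30%). The list summed to 5974 to 7325 CPM at high pressure and 3817 to 4610 CPM at low pressure. The part of these cells in the changes of the 9 genes was not tested. Several genes stand in more than one list.

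**Figure D3:**
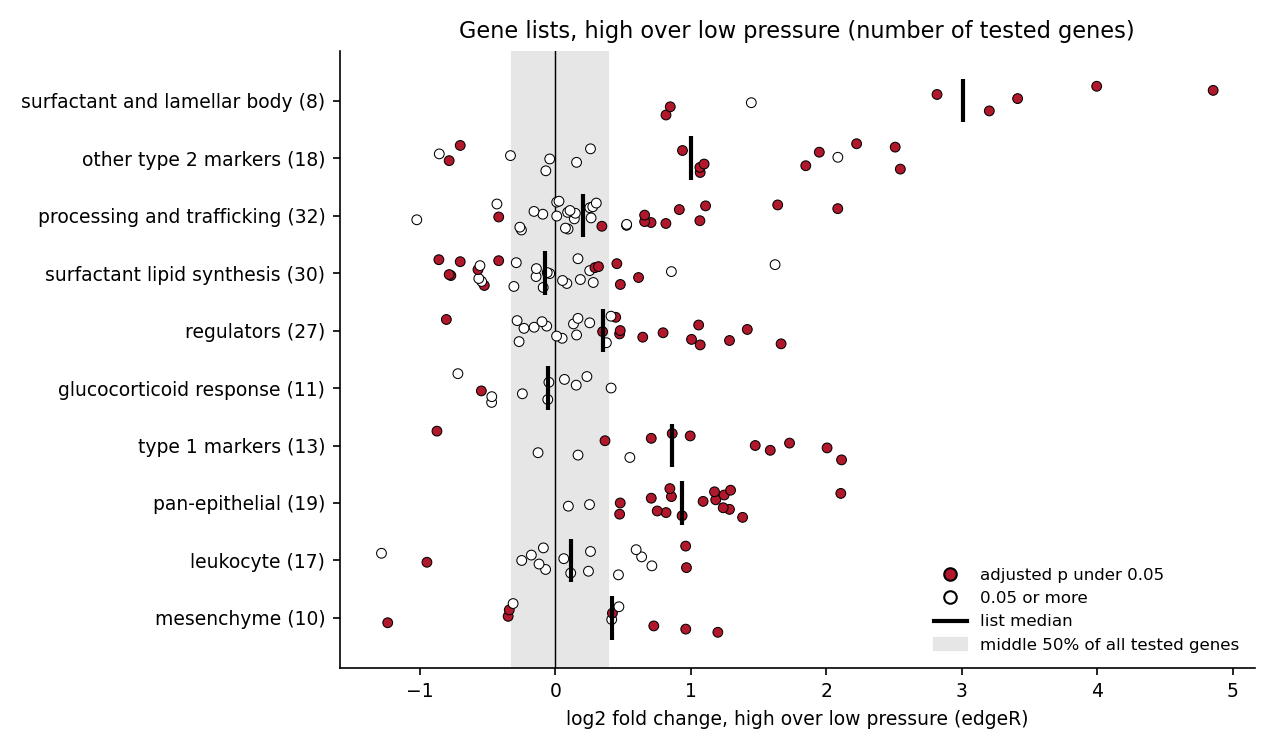
Log2 fold change of high over low pressure from edgeR for the tested genes of 10 lists (rows, with the number tested); filled points have an adjusted p under 0.05, black bars are list medians, and the grey band holds the middle 50% of all genes tested. The surfactant and lamellar body genes have a median of 3.01, against 1.0 for other type 2 cell markers and -0.08 for lipid synthesis. Of those behind the 3.01, 3 passed the filter only through the high pressure libraries, so the medians are a description.

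In fresh lungs the planned test called none of the 9 genes between stages. The 3 comparisons of stages shared 1 fit of 9 libraries, which called 0 of 14242 genes (0%) in each comparison; 123, 977 and 1328 genes had an unadjusted p under 0.05 for E13.5 against E12.5, E14.5 against E13.5 and E14.5 against E12.5, and DESeq2 called 0, 270 and 457. Of the 9 genes, 6 passed the filter, and Sftpd, Napsa and Slc34a2 were too scarce to be tested. Deviations from the group means correlated at 0.40 to 0.84 in all 9 same-numbered pairs of fresh libraries, but also at 0.45 to 0.63 between replicates 2 and 3 of different stages, so what the data show is replicate 1 standing apart from the other replicates. A fit with the number as a block called 1, 856 and 1561 genes, or 0.00702%, 6.01% and 11% of those tested. In that fit 1 of the 6 genes was called, Abca3, which rose for E14.5 against E12.5, where 7.33% of all genes tested were called higher and 3.63% lower.

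Abca3 had 33.4, 33.7 and 26.5 CPM at E12.5, 29.7, 31.1 and 36.5 CPM at E13.5, and 43.1, 40.9 and 38.9 CPM at E14.5. Every E14.5 library was above every earlier one. The log2 fold change of E14.5 over E12.5 was 0.41 with the block (SE 0.12, edgeR adjusted p = 0.0465) and 0.41 without it (adjusted p = 0.433). Lamp3 had 1.55, 1.61 and 0.409 CPM at E12.5, 0.641, 1.55 and 2.94 CPM at E13.5, and 3.86, 2.55 and 4.88 CPM at E14.5. All E14.5 libraries were above all E12.5 libraries, but the log2 fold change of 1.59 with the block (SE 0.62) did not pass (edgeR adjusted p = 0.143).

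The level of Sftpc at E14.5 rested largely on 1 library. It had 17.3, 6.81 and 3.27 CPM at E12.5, 14.6, 4.6 and 4.89 CPM at E13.5, and 79.9, 10.2 and 6.80 CPM at E14.5, so replicate 1 was the highest at each stage. The log2 fold change of E14.5 over E12.5 was 1.84 without the block (SE 1.05, edgeR adjusted p = 0.756), 1.41 with it (SE 0.43, adjusted p = 0.105) and -0.12 without E14.5 replicate 1. Within replicates 2 and 3 alone it was 0.77 (adjusted p = 0.206). In Sftpb replicate 1 was again the highest, with 6.41, 3.73 and 1.38 CPM at E12.5, 6.32, 2.14 and 2.15 CPM at E13.5, and 8.64, 2.86 and 2.74 CPM at E14.5. Its log2 fold change of E14.5 over E12.5 was 0.30 with the block (SE 0.26, adjusted p = 0.494) and -0.47 in the unblocked fit without E14.5 replicate 1. Per 1000 epithelial reads, Sftpc had 55.1 in E14.5 replicate 1, against 14.0 and 7.57 in E14.5 replicates 2 and 3. The summed epithelial level of replicate 1 moved with these values, and its part in them was not tested beyond that ratio. The summed mesenchyme level was also highest in replicate 1 at each stage, at 3125, 3406 and 3874 CPM. In replicates 2 and 3 it was 2282 to 3036 CPM.

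Sftpa1 and Lpcat1 did not pass at any stage. Sftpa1 had 2.86 to 4.54 CPM at E12.5, 4.14 to 4.81 CPM at E13.5 and 3.91 to 4.82 CPM at E14.5. Lpcat1 had 65.9 to 73.9 CPM at E12.5, 60.5 to 73.3 CPM at E13.5 and 57.4 to 76.5 CPM at E14.5. The ranges overlapped for both genes, and with the block the log2 fold changes of E14.5 over E12.5 were 0.25 (SE 0.22) for Sftpa1 and -0.05 (SE 0.11) for Lpcat1. Napsa had 1, 2 and 0 counts at E12.5, 5, 1 and 0 counts at E13.5, and 17, 1 and 0 counts at E14.5. The 17 counts were again in replicate 1. Slc34a2 had at most 7 counts in any fresh library.

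**Figure D4:**
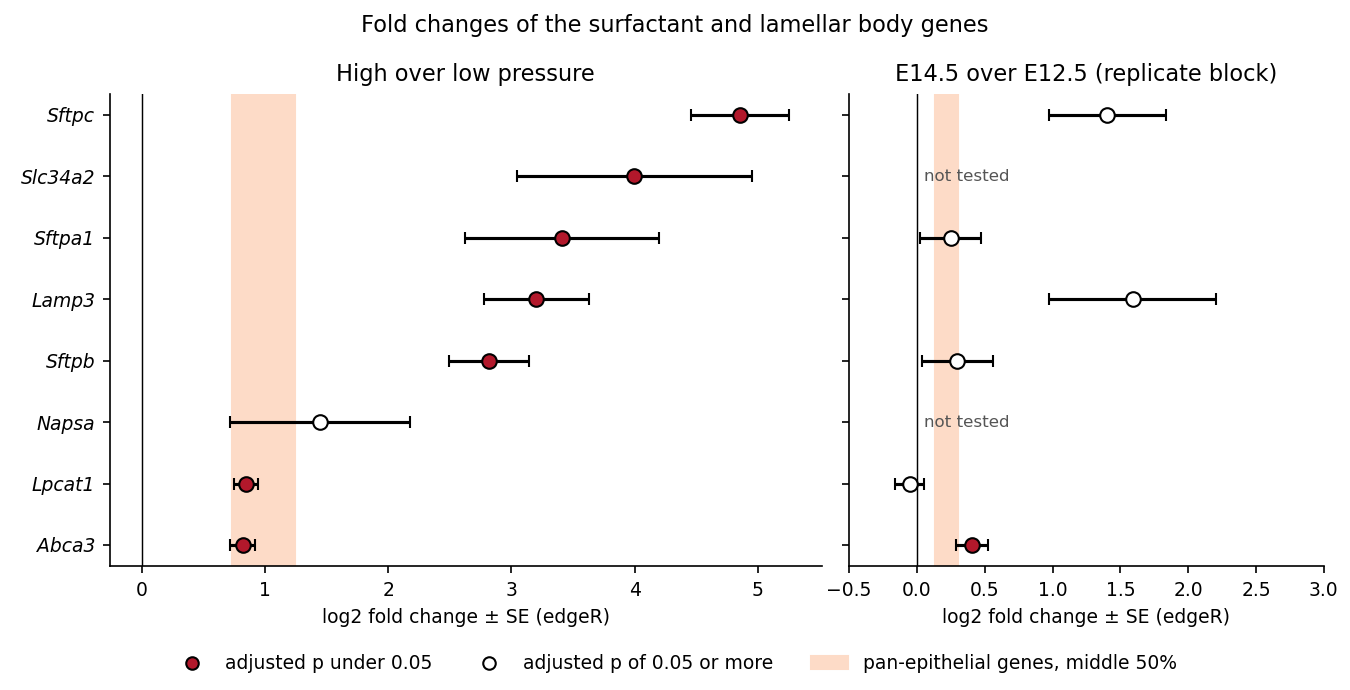
Log2 fold change with its SE from edgeR for high over low pressure (left) and for E14.5 over E12.5 with the replicate block (right); filled points have an adjusted p under 0.05 and the shaded band holds the middle 50% of pan-epithelial genes. Abca3 (0.82) and Lpcat1 (0.85) lie within the band for pressure and Sftpb to Sftpc (2.82 to 4.86) lie beyond it; on the right Sftpc (1.41) and Lamp3 (1.59) have the largest values, and Abca3 (0.41) is the gene called.

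The same lists were counted over the stages with the block. For E14.5 against E12.5, 7.33% of all genes tested were called higher and 3.63% lower. Of 17 other type 2 cell markers, 5 rose (29.4%: Lyz1, Lyz2, Il33, Egfl6 and Ctsh) and 2 fell (11.8%: Scd1 and Fasn). Their median log2 fold change was 0.77. Lyz1 and Lyz2, the lysozymes, rose by 1.59 and 1.36, and Ctsh, a protease that processes surfactant protein precursors, rose by 1.36. Of 32 processing and trafficking genes 11 rose (34.4%) and 0 fell, among them Rab38 (0.87) and Lamp2 (0.45). Of 30 lipid synthesis genes 2 rose (6.67%) and 4 fell (13.3%). Of 27 regulators 4 rose (14.8%: Nr3c1 by 0.67, Klf5 by 1.17, Nfia by 0.46 and Elf5 by 1.19) and 0 fell. Of 19 pan-epithelial genes 0 rose and 0 fell. Markers of type 1 cells were also called beside these: 5 of 12 rose (41.7%) and 0 fell. Those that rose were Hopx (2.65), Clic5 (2.19), Emp2 (1.15), Pdpn (0.85) and Akap5 (0.44). The list summed to 698 to 848 CPM at E14.5 and 378 to 518 CPM at E12.5. Of 15 leukocyte markers 1 rose (6.67%: Lyz2, also in the type 2 list) and 0 fell. Their sums were 155 to 184 CPM at E14.5 and 86.4 to 167 CPM at E12.5. Of 10 mesenchyme markers 3 rose (30%: Col1a1, Col1a2 and Meox2) and 1 fell (10%: Tbx5). Of 10 genes induced by glucocorticoids 0 rose and 1 fell (10%: Fkbp5). The part of these cells in the changes of the 9 genes between stages was not tested. Apart from genes in counts of 5 or fewer, the stage examples were named after their values were seen.

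Cultured and fresh lungs stand in separate tables, so culture cannot be told apart from table, and levels across them were set side by side with no test. How many of all genes lay apart in the same way was not counted, so these separations are a description. Sftpc at high pressure (128 to 210.2 CPM) was above every fresh library (3.27 to 79.9 CPM), and so were Sftpb (19.4 to 24.2 CPM at high pressure, 1.38 to 8.64 CPM in fresh lungs), Lamp3 (6.68 to 10.3 against 0.409 to 4.88 CPM) and Abca3 (62.9 to 73.9 against 26.5 to 43.1 CPM). At low pressure, Sftpb (2.18 to 5.08 CPM) and Lamp3 (0.527 to 1.52 CPM) lay within the fresh range, and Sftpc (2.94 to 9.14 CPM) overlapped with its lower part. Sftpa1 and Lpcat1 differed from these: at low pressure Sftpa1 (0 to 0.961 CPM) was below every fresh library (2.86 to 4.82 CPM), and Lpcat1 (45.1 to 51.0 CPM) was below every fresh library (57.4 to 76.5 CPM). At high pressure Sftpa1 (4.97 to 8.21 CPM) and Lpcat1 (80.4 to 89.4 CPM) were just above the highest fresh library. The low pressure lungs thus had lower levels of both transcripts than every fresh library of E12.5, the stage at which culture began. Summed epithelial RNA also differed, at 2340 to 2435 CPM at high pressure and 659 to 1451 CPM in fresh lungs. Per 1000 epithelial reads, high pressure Sftpb (8.26 to 10.4) stayed above every fresh library (2.09 to 6.04). Sftpc (54.4 to 89.8) overlapped with E14.5 replicate 1 (55.1), and Lamp3, Abca3 and Sftpa1 overlapped with fresh libraries. Lpcat1 (34.3 to 36.9) was below every fresh library (46.3 to 99.9).

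The genes whose pattern over the 15 libraries was most like that of a member were found by the root-mean-square difference of centred log2(CPM + 0.5) among the 13421 genes that averaged 1 CPM or more. For Sftpb these were Wfdc2 (0.31), Vsig2 (0.40), Tspan1 (0.45) and Stard10 (0.46), a lipid transfer protein. Wfdc2, a secreted epithelial protein, averaged 124 CPM at high pressure and 26.1 CPM at low pressure, and in fresh lungs 25.7 CPM at E12.5, 23.7 CPM at E13.5 and 38.5 CPM at E14.5. For Lamp3 they were Dram1 (0.45), Cldn18 (0.46), Tspan8 (0.51) and Slc27a6 (0.54). Dram1, a lysosomal membrane protein, averaged 24.6 CPM at high pressure and 6.81 CPM at low pressure, and in fresh lungs 8.20 CPM at E12.5, 9.80 CPM at E13.5 and 17.6 CPM at E14.5. Sftpc had no gene as close: Cyp2f2 (0.71), Msln (0.93), Tinagl1 (0.96) and Gas6 (0.97) came first, and Sftpb itself was at 0.88. Cyp2f2, a cytochrome P450 of airway club cells, averaged 10.5 CPM at high pressure and 0.148 CPM at low pressure. Among fresh lungs it averaged 0.0153 CPM at E12.5, 0 CPM at E13.5 and 0.745 CPM at E14.5. Msln averaged 0.571 CPM at low pressure, 0.142 CPM at E12.5 and 0.116 CPM at E13.5. The added 0.5 is large beside such levels, so it weighs on the likeness of Cyp2f2 and Msln. For Slc34a2 the added 0.5 outweighs most of its own levels, so the likeness mainly reflects that value; Als2cl (0.25), Fas (0.30), Mpzl2 and Deptor came first.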

How the data were processed

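The tools were cutadapt 1.6, Bowtie 1.1.1, TopHat, HTSeq and DESeq2 on genome build mm10, per the submitters' processing notes, which name neither the annotation nor the strand setting. The authors deposited raw counts per gene for 23420 genes in separate tables of cultured and fresh lungs, and these whole-number counts were used throughout. edgeR 4.0.16 (R 4.3.3) fitted each table by itself (TMM factors, filterByExpr, robust quasi-likelihood test, Benjamini-Hochberg adjustment over all genes tested, threshold 0.05), with all 9 fresh libraries in 1 fit. SE was taken as the log2 fold change over the root of edgeR's F. CPM used TMM factors of all 15 libraries, and exon lengths and positions came from GENCODE M21. Fits were run on simulated counts with the same spread for every gene. The simulation lacked the differences of replicate 1 and of low pressure replicate 3, so it checks the code and not these data. Alternatives were other size factors, no filter, DESeq2 1.42.0, the replicate block, other sets of libraries and each library left out. The 9 genes and all lists were chosen with earlier results of these data known. Named genes are the 9 genes, up to 4 called genes per list with the smallest p under pressure and those called in the opposite direction, the 4 most alike genes of Sftpc, Sftpb, Lamp3 and Slc34a2, and markers for the tissue check; others are said to be named after their values were seen. The replicate block is given beside the main fit for fresh lungs, where every same-numbered pair correlated above 0.1 in deviations from group means (0.40 to 0.84); replicates 2 and 3 of different stages correlated as highly (0.45 to 0.63), and only replicate 1 stood apart from the others (-0.74 to -0.54 with replicates 2 or 3). The 3 cultured pairs correlated at -0.01 to 0.05. No 2 libraries of the same group agreed within sampling noise, and libraries of different groups were not compared in this way. Precision is limited by 3 libraries per group.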

Additional observations from a re-analysis of the deposited data

How the results depend on the processing

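For high against low pressure, 7 of the 8 tested genes were called under other size factors, no filter, DESeq2, the replicate block (3137 genes in all), all 15 libraries in 1 fit (1121 genes in all, against 3905) and, chosen after seeing the data, without replicate 3 of both pressures (5396 genes). Leaving out each cultured library gave 5 to 7 of the 8 genes and 1894 to 6257 genes in all; the highest count came without low pressure replicate 3, and the calls lost were those of Sftpa1 and Slc34a2 given above. All 96 log2 fold changes and all 72 ratios to epithelial reads under alternatives kept their sign. The difference in the ratio of Napsa was only 0.0051 without low pressure replicate 3. That of Sftpd rested on 2, 7 and 2 counts at high pressure against 0 in every low pressure library. The small count added before taking logs therefore weighs on its sign.

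For the stages, where the main fit called 0 genes, the fit with the replicate block called 1 (E13.5 against E12.5), 856 (E14.5 against E13.5) and 1561 genes (E14.5 against E12.5), and a batch term for replicate 1, chosen after seeing the data, called 1, 808 and 1592. Without replicate 1 of every stage, 62 genes were called for E14.5 against E13.5 and 1119 for E14.5 against E12.5, DESeq2 called 270 and 457, and no filter called 9 for E14.5 against E12.5, where leaving out each library gave 0 to 3. Of the 9 genes, 1 (Abca3) was called with the block and 1 with the batch term. Without replicate 1 of every stage 0 of them were called, and Abca3 missed the threshold for E14.5 against E12.5 (edgeR adjusted p = 0.0862). The cause of these differences was not tested beyond the fits themselves.

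Leaving out each library turned the sign of log2 fold changes that had not passed. The ranges were -0.12 to 0.012 for Sftpa1 (E14.5 against E13.5), -0.89 to 0.51, -0.36 to 1.20 and -0.47 to 0.94 for Sftpb (E13.5 against E12.5, E14.5 against E13.5 and E14.5 against E12.5), -0.99 to 0.71 and -0.12 to 2.73 for Sftpc (E13.5 against E12.5 and E14.5 against E12.5), -0.063 to 0.13 for Abca3 and -0.13 to 0.88 for Lamp3 (E13.5 against E12.5), and -0.069 to 0.098 and -0.14 to 0.026 for Lpcat1 (E14.5 against E13.5 and E14.5 against E12.5). For Lpcat1, E14.5 against E13.5 was also -0.015 with other size factors, -0.015 in DESeq2 and -0.037 without replicate 1 of every stage, against 0.019. The counts of Sftpd, Napsa and Slc34a2 limit what fresh lungs can show of them.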
